A study of Mus musculus with 4 samples.

Results

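The genes described are 9 members of the MHC class I and interferon-related group in mouse heart valve cells: the class I light chain B2m, the heavy chains H2-K1, H2-D1 and H2-Q4, the peptide transporter subunit Tap1, the immunoproteasome subunit Psmb8, the transcription factor Irf1, and the membrane proteins Ifitm3 and Ifitm2. They were chosen by symbol, and all 9 were found among the 27998 genes of each table. At least 1 UMI was counted for all 9 at E9.5 and in both P0 libraries, and for 8 of 9 at E16.5, where H2-Q4 had none.

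The cells came from embryos and newborns of mice carrying Tie2-Cre and the Rosa26 tdTomato reporter on the C57BL/6 strain. Tie2-Cre acts in endothelial and blood cells, so red cells in this cross include the endothelium, its mesenchymal descendants in the valve, and blood cells. The 3 groups were 1 library of E9.5 atrioventricular canal, 1 of E16.5 mitral valve and 2 of newborn (P0) mitral valve. All were sorted for red fluorescence and carried the same alleles, and at least 60 embryos were pooled per stage. The E9.5 library also held classes outside that description, among them 479 cardiomyocyte-like cells of 1194 cells kept. Why they were present was not tested. The study followed how endothelial cells and their descendants build the valve, and the question here is which cells gain class I transcripts between E9.5 and P0 and whether endothelial cells differ from their neighbours in this.

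A class I molecule on the cell surface consists of a heavy chain, the B2m light chain and a short peptide. Proteasomes, among them immunoproteasomes that hold Psmb8, cut proteins into peptides, and the TAP transporter, made of Tap1 and Tap2, carries them into the endoplasmic reticulum where tapasin (Tapbp) helps to load them. Interferons raise the transcription of most of these genes through STAT and IRF factors such as Irf1, and they also induce Ifitm3 and Ifitm2, which restrict virus entry.

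The E9.5 library held 1206 cells and was far deeper than the others, with a median of 24621 UMIs per kept cell against 2357 at E16.5, then 5159.5 and 4432 in the P0 libraries. After filtering, 1194, 311, 282 and 173 cells remained. Each library was clustered alone without any gene of the pathway lists, so that the genes reported did not shape the classes. The surface endothelial-like class (108, 71, 46 and 47 cells) had all 12 endothelial markers present in every library and summed to 34.2, 61.0, 66.7 and 59.1 UMIs per 10000 for them. The capillary endothelial-like class (61 cells at E16.5, 62 and 43 at P0) was named from Fabp4, Cd36, Gpihbp1 and other capillary markers. The interstitial-like class (101, 74 and 41 cells) held the collagen-rich mesenchyme of the leaflet. At E9.5 no interstitial-like class was found, and a mixed endothelial and cushion cluster of 83 cells, led by Pdlim3, Tagln2 and Hapln1, stood in its place. Levels below are UMIs per 10000 UMIs of a class in a library, with exact Poisson 95% intervals that cover counting error only. Stage tests used edgeR's quasi-likelihood test with TMM scaling and Benjamini-Hochberg adjustment over all genes tested, and stage and library coincide at E9.5 and E16.5. The labels do not say that the P0 libraries are separate litters, so the spread that the p-values use may be technical. In the stage fits this spread was pooled over all genes, so the p-values do not reflect a gene's own spread between the P0 libraries. The spread was pooled likewise for capillary against surface cells, and for the difference in stage change between surface and interstitial-like cells.

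Per GENCODE vM21 on GRCm38 (mm10), all 9 are protein-coding genes, and 5 lie on chromosome 17: H2-K1 at 33996017 to 34000347, Tap1 at 34187553 to 34197225, Psmb8 at 34197721 to 34201454, H2-D1 at 35262730 to 35267499 and H2-Q4 at 35379617 to 35385290. B2m lies on chromosome 2 at 122147686 to 122153083, Irf1 on chromosome 11 at 53770014 to 53778374, and Ifitm2 and Ifitm3 on chromosome 7 at 140954837 to 140955987 and 141009586 to 141010770. In the deposited gene tables, B2m overlaps Patl2, H2-Q4 Gm11131, Tap1 Psmb9, Psmb8 Gm20496 and Irf1 Gm17334, each on the other strand. The counting strand is not given in the sources used here, and how reads of such a pair were assigned was not checked. Of the distinct 57-nt windows in the last 500 nt of the annotated transcripts, the share also found in another gene's transcript was 39.4% for Ifitm2, 26.8% for H2-Q4, 9.7% for Ifitm3, 5.9% for H2-K1, 4.9% for H2-D1, 2.0% for Tap1, and 0.0% for B2m, Psmb8 and Irf1. Levels of Ifitm2 and H2-Q4 are therefore the least certain.

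The upstream sequences of the light chain and the 3 heavy chains are shown because these genes share a proximal promoter in textbook accounts of class I control, yet differed in their levels across stages and cells. Each line gives the 250 bases before the first RefSeq start (GRCm38.p6), 5′ to 3′ on the gene's strand, with matched motifs in capitals. B2m is chr2:122147437-122147686 (+), H2-K1 is chr17:34000348-34000597 (-), H2-D1 is chr17:35262844-35263093 (+) and H2-Q4 is chr17:35379367-35379616 (+). The GENCODE model of H2-D1 starts farther upstream, at 35262730.
B2m: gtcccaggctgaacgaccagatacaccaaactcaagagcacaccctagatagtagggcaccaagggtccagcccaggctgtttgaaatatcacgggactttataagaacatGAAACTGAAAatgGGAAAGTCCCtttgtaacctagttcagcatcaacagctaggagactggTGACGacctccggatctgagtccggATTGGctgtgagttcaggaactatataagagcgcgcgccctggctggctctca
H2-K1: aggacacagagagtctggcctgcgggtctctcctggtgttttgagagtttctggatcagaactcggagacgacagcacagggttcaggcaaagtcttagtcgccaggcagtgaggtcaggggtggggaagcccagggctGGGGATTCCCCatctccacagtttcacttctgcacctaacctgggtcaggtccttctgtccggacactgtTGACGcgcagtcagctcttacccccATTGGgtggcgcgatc
H2-D1: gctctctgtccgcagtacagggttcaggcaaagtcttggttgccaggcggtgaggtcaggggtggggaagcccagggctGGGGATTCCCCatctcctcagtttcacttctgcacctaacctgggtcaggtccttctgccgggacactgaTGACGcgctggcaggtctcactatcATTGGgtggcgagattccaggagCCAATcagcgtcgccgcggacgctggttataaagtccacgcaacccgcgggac
H2-Q4: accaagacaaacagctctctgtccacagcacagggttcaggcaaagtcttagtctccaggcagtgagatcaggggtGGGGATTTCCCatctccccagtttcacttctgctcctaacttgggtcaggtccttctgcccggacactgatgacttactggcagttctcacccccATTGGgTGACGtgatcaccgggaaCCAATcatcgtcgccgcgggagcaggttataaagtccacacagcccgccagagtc

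The capitals mark, on either strand, the interferon-stimulated response element core (GAAA, any 2 bases, GAAA), the NF-kappaB consensus, TTCNNNGAA (a gamma-activated site), CCAAT and TGACG. A consensus match to NF-kappaB, a CCAAT box and TGACG were each present in all 4 of these windows, against 3.9%, 33.8% and 17.8% of the 32851 promoter windows of the same length. Each heavy chain had a pair of overlapping NF-kappaB matches, shifted by 1 base. B2m alone among these 4 also held an exact match to the response element core, found in 2.98% of all windows, at 139 to 130 bases before the start. Only exact matches were searched, so a variant of the element in the heavy chain windows would not be marked. Of the other members, all of which had a window, Ifitm2 also held the response element core, Psmb8 and Irf1 held TTCNNNGAA (7.02% of all windows), and Ifitm3 held none of the motifs. The Psmb8 window, chr17:34197945-34198194, lies inside the GENCODE gene, which starts at 34197721. A match describes letters in these windows and nothing about binding in these cells, and the lack of a match does not show that an element is absent.

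The classical heavy chains H2-D1 and H2-K1 had their high levels at P0 in endothelial-like cells and were low in the same classes at earlier stages. H2-D1, which presents peptides to CD8 T cells, was at 0.337 (0.27 to 0.414) in surface endothelial-like cells at E9.5, 1.43 (0.952 to 2.07) in the E16.5 library, then 7.48 (6.52 to 8.53) and 6.16 (5.2 to 7.25) in the P0 libraries. In capillary endothelial-like cells it was at 1.01 (0.615 to 1.55) at E16.5, then at 8.82 and 6.54 in the P0 libraries. Interstitial-like cells had 1 UMI at E16.5, a level of 0.0443 (0.00112 to 0.247), and 0.651 (0.422 to 0.962) and 0.932 (0.543 to 1.49) at P0. Both P0 libraries lay above E16.5 in all 3 classes, and the endothelial-like classes lay above the interstitial-like class in each of the 3 mitral libraries without overlap of the counting intervals.

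H2-K1, the second classical heavy chain, followed the same order at lower counts. Surface endothelial-like cells had 6 UMIs at E9.5 (0.0227 per 10000), 1 in the E16.5 library (0.0511), then 43 and 11 in the P0 libraries (1.46 and 0.467). Capillary endothelial-like cells had 3 UMIs at E16.5 (0.151), then 94 and 39 in the P0 libraries (2.05 and 1.26). Interstitial-like cells had 0 UMIs at E16.5, below a floor of 0.133 per 10000 set by 3 UMIs, and 6 and 1 at P0. The P0 libraries lay apart in the surface class, whose mean was 0.964 ± 0.703 (SD, n = 2).

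**Figure D1:**
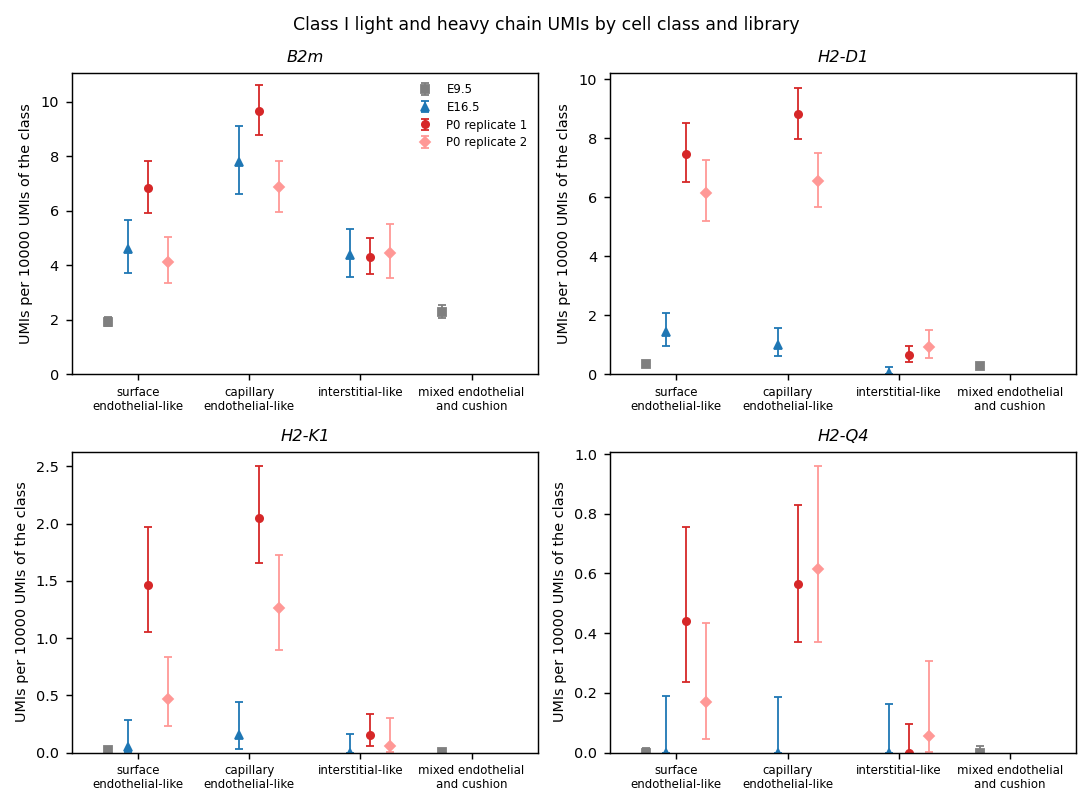
UMIs per 10000 UMIs of a class for B2m, H2-D1, H2-K1 and H2-Q4 in 4 classes, with 1 point per library and exact Poisson 95% intervals; the macrophage-like class is left out. H2-D1 stands at 6.16 to 8.82 in both endothelial-like classes at P0 and at or below 1.43 at earlier stages, while B2m differs less between stages after E9.5.

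Between E16.5 and P0, surface endothelial-like cells had higher H2-D1 by 1.79 on the log2 scale (SE 0.38, adjusted p = 5.02e-05, edgeR). The H2-K1 share of UMIs, unscaled and pooled over the P0 libraries, rose 19.9-fold (exact interval 3.43 to 802) from 1 UMI. With TMM scaling the edgeR difference of H2-K1 was 3.77 (SE 1.22, adjusted p = 0.0133). Of the 9 members, 5 had enough UMIs to be tested, with 2 higher and 1 lower at P0, where 9.54% and 12% of 4359 tested genes were called higher and lower and 21.6% in either direction. H2-K1 passed the filter on low counts through the P0 libraries alone, so its direction was fixed by the filter. The H2-K1 call was lost with deeper cells only, those of 1000 or more genes (adjusted p = 0.111) and at a clustering resolution of 0.5 (adjusted p = 0.0532).

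Capillary endothelial-like cells changed in the same direction. H2-D1 rose by 2.23 (SE 0.39, adjusted p = 1.83e-07, edgeR). The unscaled H2-K1 share rose 11.5-fold (exact interval 3.84 to 56.3). By edgeR with TMM, H2-K1 rose by 2.75 (SE 0.58, adjusted p = 2.18e-05), a call that DESeq2 did not make (adjusted p = 0.124). H2-Q4, a nonclassical Q-region gene, had 0 UMIs at E16.5 (floor 0.151) and 26 and 19 at P0 (0.566 and 0.615). Its unscaled share was at least 3.88-fold higher against a floor of 3 UMIs, and the edgeR fit called it higher (adjusted p = 0.0084). Of 7 members tested, 3 were higher and 1 was lower at P0, where 17.6% and 20.1% of 3456 tested genes were called higher and lower and 37.6% in either direction. H2-K1 and H2-Q4 passed the filter through P0 alone here too.

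In interstitial-like cells the unscaled H2-D1 share rose 16.7-fold (exact interval 2.85 to 677) from 1 UMI to 42. By edgeR with TMM the difference was 3.55 (SE 1.20, adjusted p = 0.0157), and H2-D1 too passed the filter through P0 alone. The call was lost without the dividing cluster of P0 replicate 1 (16 of its 74 cells, adjusted p = 0.111), at resolution 0.5 (adjusted p = 0.0609), with the pathway genes used in clustering (adjusted p = 0.0805) and with deeper cells only (adjusted p = 0.201). Of 5 members tested, 1 was higher and 2 were lower at P0, where 12.2% and 14.6% of 3859 tested genes were called higher and lower and 26.8% in either direction.

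Endothelial marker levels in this class are given beside H2-D1. The 12 endothelial markers summed to 9.30 per 10000 in interstitial-like cells at E16.5, then 6.12 and 5.48 in the P0 libraries. The P0 sums are 9.18% and 9.28% of their level in surface endothelial-like cells of the same library, and H2-D1 stood at 8.72% and 15.1% of its own surface level. At E16.5 the endothelial markers stood at 15.3% and H2-D1 at 3.09%. Tie1, Kdr and Esam were at 0 UMIs in the class in both P0 libraries, and Cdh5 and Emcn also in replicate 2. The part of such RNA in the interstitial H2-D1 value was not tested.

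Against E9.5, surface endothelial-like cells at P0 were higher for all 5 members tested, where 24.8% of 4359 genes were called higher, 27% lower and 51.8% in either direction. H2-D1 differed by 4.48 (SE 0.35, adjusted p = 7.19e-34, edgeR), H2-K1 by 5.48 (SE 0.78, adjusted p = 2.9e-11) and B2m by 1.66 (SE 0.30, adjusted p = 3.35e-07). H2-Q4 had 0 UMIs at E9.5 and 17 at P0, at least 28.3-fold higher, and was too low to be tested. H2-K1 reached the filter's minimum of 0.511 per 10000 only at P0, so it could not be called lower. H2-D1 lay below this minimum at E9.5, but it also passed through the E16.5 surface sum of the same fit, at 1.43. The dissected region differs between these stages as well, and the E9.5 and E16.5 comparisons share both P0 libraries.

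The E9.5 mixed endothelial and cushion cluster, compared with P0 interstitial-like cells, was lower for all 5 members tested, where 23.1% of 3859 genes were called higher at P0, 18.2% lower and 41.3% in either direction. The P0 cells were higher for H2-D1 by 1.88 (SE 0.58, adjusted p = 0.00459, edgeR), for B2m by 1.28 (SE 0.26, adjusted p = 6.93e-06) and for Ifitm3 by 4.87 (SE 0.29, adjusted p = 3.84e-58). H2-D1 and Irf1 reached the filter's minimum of 0.548 per 10000 through P0 alone, so neither could be called lower at P0. Ifitm3 lay below it in the mixed cluster too, but it also passed through the E16.5 interstitial-like sum of the same fit, at 13.3. The H2-D1 call was lost in DESeq2 (adjusted p = 0.471), at resolution 0.5 (adjusted p = 0.0721) and without the dividing cluster (adjusted p = 0.0989). These are different mixtures of cells, since 21.2 endothelial marker UMIs per 10000 were counted in the mixed cluster.

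Within libraries, the classical heavy chains were higher in endothelial-like than in interstitial-like cells. With the library as a block, surface endothelial-like cells exceeded interstitial-like cells for H2-D1 by 3.24 (SE 0.29, adjusted p = 5.01e-06, edgeR) and for H2-K1 by 3.11 (SE 0.59, adjusted p = 0.0019), and capillary endothelial-like cells exceeded them by 3.36 (SE 0.30, adjusted p = 1.98e-10) and 3.85 (SE 0.51, adjusted p = 4.26e-07). In the surface contrast 3 of 6 tested members were higher and none lower, where 11.7% of 4089 genes were called higher, 10.7% lower and 22.4% in either direction. In the capillary contrast 3 of 7 were higher, where 13.2% of 3985 genes were called higher, 12.7% lower and 25.9% in either direction. H2-K1 lay below the filter's minimum of 0.548 per 10000 in every interstitial-like sum, so its direction was fixed by the filter, while H2-D1 passed it in the P0 interstitial-like sums too. These background shares include the genes that define the classes. The surface H2-K1 call was lost in DESeq2 (adjusted p = 0.0574), with deeper cells only (adjusted p = 0.0578) and without the block (adjusted p = 0.144) and, because the direction no longer held in every library, with the pathway genes used in clustering.

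No difference in H2-D1 was called between the capillary and surface classes, at 0.07 (SE 0.22, adjusted p = 0.884, edgeR). Capillary cells were higher for B2m by 0.71 (SE 0.21, adjusted p = 0.00541) and for H2-K1 by 0.85 (SE 0.32, adjusted p = 0.0434), 2 of 7 tested members, where 8.49% of 4172 genes were called higher in capillary cells, 9.3% lower and 17.8% in either direction. The H2-K1 call was lost under 10 of the alternatives tried, and the B2m call was lost without the E16.5 library (adjusted p = 0.0696) and without P0 replicate 1 (adjusted p = 0.0686). In order of H2-D1 level at P0, the macrophage-like cluster stood first, the capillary and surface classes followed with no called difference between them, and the interstitial-like class came last.

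Whether the stage change itself was larger in endothelial-like than in interstitial-like cells was tested by an interaction, and no member was called. For H2-D1 the change in surface minus interstitial cells was -1.65 (SE 1.28, adjusted p = 0.705, edgeR) and in capillary minus interstitial cells -1.22 (SE 1.23, adjusted p = 0.836), with the single E16.5 interstitial UMI behind the wide errors. The surface interaction called 1.35% of 4089 genes, 0.489% as a higher and 0.856% as a lower change, and the capillary interaction 0% of 3985. DESeq2 called 0 genes in the latter, and edgeR had 456 and 298 genes at an unadjusted p under 0.05. The level of H2-D1 differed between the classes within each library, and a difference in fold change between them was not shown.

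**Figure D2:**
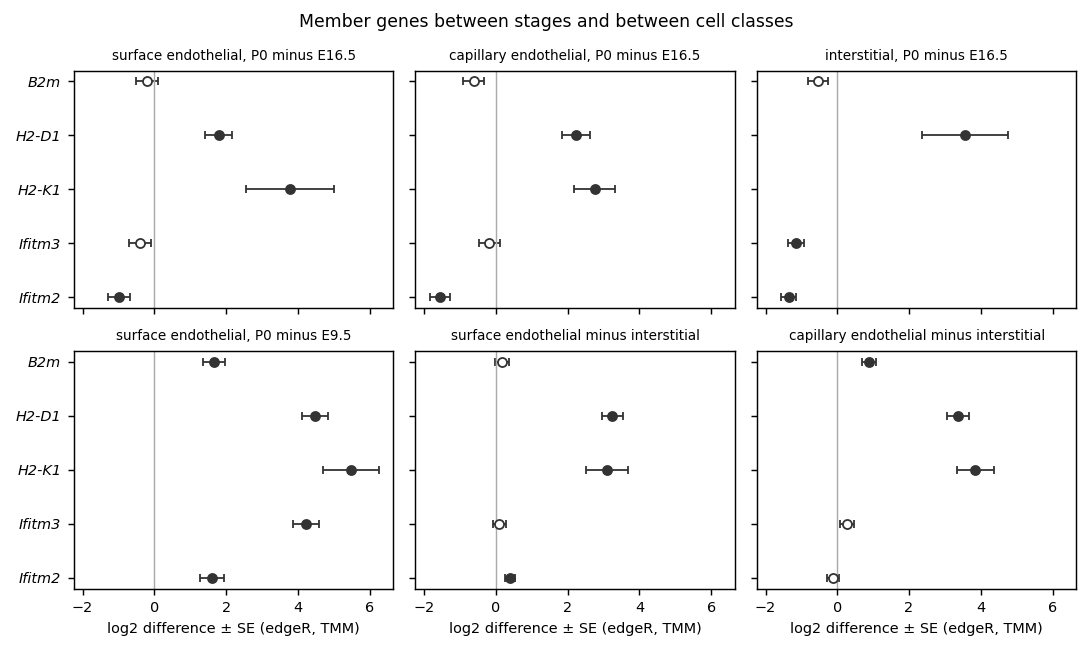
Log2 differences with standard errors from edgeR's quasi-likelihood fits for 5 members in 4 comparisons that involve stage and 2 between classes; filled points passed an adjusted p of 0.05, and a gene not tested has no point. H2-D1 lies at 1.79, 2.23 and 3.55 between E16.5 and P0 and at 3.24 and 3.36 between classes; fitted values that rest on 1 to 3 UMIs on a side, H2-K1 between E16.5 and P0 and interstitial H2-D1, depend on the prior count.

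The light chain B2m, without which heavy chains do not reach the surface, was present at every stage and in every class compared. Surface endothelial-like cells had 1.92 (1.76 to 2.09) at E9.5, 4.60 (3.70 to 5.66) in the E16.5 library, then 6.83 (5.92 to 7.84) and 4.12 (3.34 to 5.03) in the P0 libraries. Capillary endothelial-like cells had 7.80 at E16.5, then 9.67 and 6.86 in the P0 libraries, and interstitial-like cells had 4.39 at E16.5, then 4.30 and 4.44 in the P0 libraries. In each class the E16.5 value lay between the P0 values. No change of B2m was called between E16.5 and P0: the differences were -0.21 (SE 0.32, adjusted p = 0.685) in surface cells, -0.62 (SE 0.29, adjusted p = 0.0834) in capillary cells and -0.53 (SE 0.28, adjusted p = 0.143) in interstitial cells by edgeR, and with library totals in place of TMM they were 0.26, 0.09 and -0.01. In interstitial cells B2m was called lower at P0 with the pathway genes used in clustering (adjusted p = 0.00458) and at resolution 0.5 (adjusted p = 0.034).

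B2m was also closer between classes than the heavy chains. Capillary endothelial-like cells exceeded interstitial-like cells by 0.87 (SE 0.20, adjusted p = 0.000855, edgeR), and surface endothelial-like cells differed from them by 0.17 (SE 0.19, adjusted p = 0.587). The capillary call was lost without P0 replicate 1 (adjusted p = 0.0524) and without the block (adjusted p = 0.313). At E9.5 the levels in other classes ran from 0.377 in erythroid-like cells to 1.53 in epicardial-like cells, all under the surface endothelial-like 1.92 and the mixed cluster's 2.29 (2.07 to 2.53).

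The number of H2-K1 and H2-D1 UMIs per B2m UMI needs no scaling between libraries. In surface endothelial-like cells it was 0.187 (exact 95% interval 0.149 to 0.234) at E9.5, 0.322 (0.204 to 0.495) in the E16.5 library, then 1.31 (1.08 to 1.58) and 1.61 (1.24 to 2.09) in the P0 libraries. Capillary endothelial-like cells went from 0.148 (0.0914 to 0.231) at E16.5 to 1.12 and 1.14 at P0. Interstitial-like cells went from 0.0101 to 0.188 (0.124 to 0.277) and 0.222 (0.125 to 0.374), and the macrophage-like cluster stood at 0.754 (0.638 to 0.890). Within each of these 3 classes the ratio at P0 was above that of the earlier stages, with no overlap of intervals, and the interstitial P0 values lay below both endothelial classes. The E9.5 mixed cluster stood at 0.118 (0.0847 to 0.160), and its interval overlaps those of the P0 interstitial-like cells. The ratio says nothing of molecules per gene, since counting efficiency differs between genes.

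**Figure D3:**
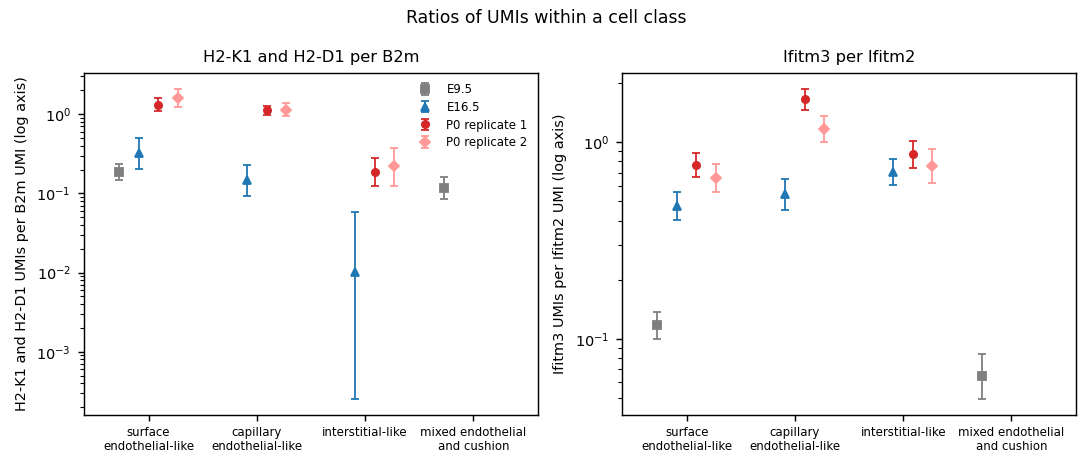
Ratios of UMIs within a class on log axes, with exact 95% intervals: H2-K1 and H2-D1 per B2m at left and Ifitm3 per Ifitm2 at right, 1 point per library. The heavy chain ratio is 1.12 to 1.61 in endothelial-like classes at P0 and 0.322 or less at earlier stages.

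At equal depth, the share of cells with H2-D1 was higher at P0 than before in both endothelial-like classes, while in interstitial-like cells P0 replicate 2 was not above E16.5. With each cell thinned to 1000 UMIs, H2-D1 was seen in 0.926% of surface endothelial-like cells at E9.5 (1 of 108), 8.7% in the E16.5 library (6 of 69), then 47.8% (22 of 46) and 34.0% (16 of 47) at P0. It was seen in 8.2% of capillary endothelial-like cells at E16.5 and in 56.5% and 44.2% at P0. In interstitial-like cells the shares were 0.99% at E16.5, then 5.41% and 0% (0 of 41, exact upper limit 8.6%) in the P0 libraries. B2m was seen in 16.7%, 29.0%, 45.7% and 27.7% of surface cells and in 34.7%, 25.7% and 29.3% of interstitial-like cells. At E16.5, 2 surface cells were too shallow and were left out.

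**Figure D4:**
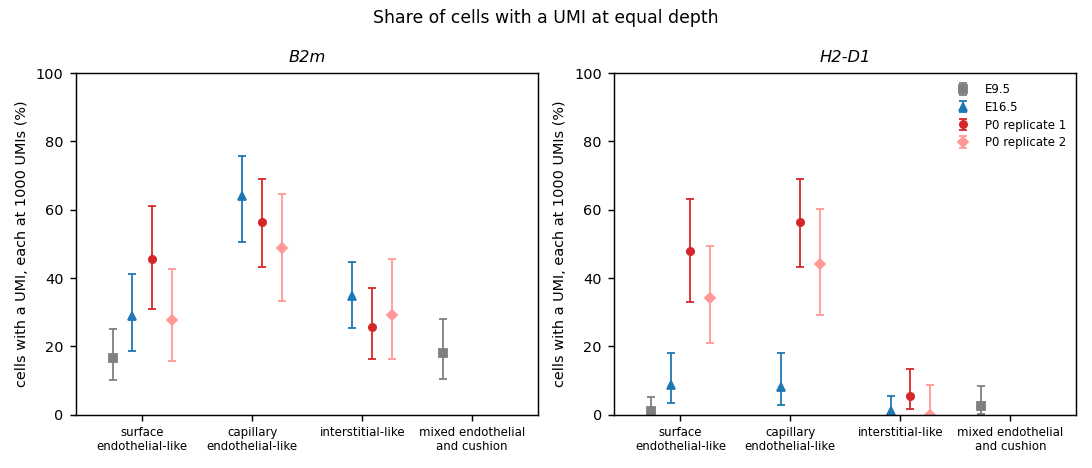
Share of cells with at least 1 UMI of B2m or H2-D1 after each cell was thinned to 1000 UMIs, with exact binomial 95% intervals and 1 point per library. H2-D1 reaches 34.0% to 56.5% in endothelial-like classes at P0 and stays at or below 8.7% at earlier stages.

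Counted per cell without scaling, the E9.5 cells were not low in B2m. Surface endothelial-like cells held 4.69 B2m UMIs per cell at E9.5, 1.27 in the E16.5 library, then 4.37 and 2.06 in the P0 libraries, since E9.5 cells yielded far more UMIs in all. H2-D1 ran from 0.824 per cell at E9.5 and 0.394 at E16.5 to 4.78 and 3.09 at P0, above both earlier stages on this scale too. Less RNA per cell and shallower sampling of each cell cannot be told apart here.

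The peptide supply genes of the group had low counts. Tap1 had 1 UMI at E9.5, 0 in the E16.5 library (floor 0.153) and 4 and 1 at P0 in surface endothelial-like cells, and at most 4 UMIs in any capillary or interstitial sum, so that no difference between E16.5 and P0 was detectable at this depth. Against E9.5 the surface share ratio was 24.9 (exact interval 2.79 to 1180), from 1 UMI to 5, outside the filter and not tested. Psmb8, the immunoproteasome subunit that replaces Psmb5, had 0 UMIs in all 3 compared classes at E16.5. At P0 it reached 0.479 (0.300 to 0.725) and 0.227 (0.0911 to 0.467) in capillary cells, 0.204 and 0.0850 in surface cells, and 0.0782 and 0.0548 in interstitial-like cells. In capillary cells this is at least 2.50-fold higher than at E16.5 against a floor of 3 UMIs, outside the test's filter.

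Other processing and loading genes were read from a list of 15, with 8 tested in surface cells, 10 in capillary cells and 7 in interstitial-like cells between E16.5 and P0. None of the 8 passed in surface cells, where the list's median difference was 0.05 beside 0.14 for all genes tested, of which 21.6% were called in either direction. In capillary cells 3 of 10 were higher and none lower, where 17.6% and 20.1% of all genes tested were called higher and lower. They were Pdia3, which aids heavy chain folding, and the loading factors Tapbp and Tapbpl. All 3 passed the filter through P0 alone. Pdia3 and Tapbp each rest on 1 UMI at E16.5, with 188 and 47 at P0, and Tapbpl rose by 1.5 (SE 0.48, adjusted p = 0.00941, edgeR). The list's median was 0.67 beside 0.20 for all genes tested. In interstitial-like cells only Calr was called, lower by 1.04 (SE 0.29, adjusted p = 0.00272, edgeR), at a list median of -0.44 beside 0.13. Of all genes tested there, 14.6% were called lower. Between classes, Psmb10, Tapbpl, Psme1 and B2m were higher in capillary than in interstitial-like cells, 4 of 10, where 13.2% of all genes tested were called higher. Psmb10 stood at 0.130 and 0.110 in the P0 interstitial-like sums, below the filter's minimum of 0.548 per 10000. None of 8 differed between surface and interstitial-like cells, where 22.4% were called in either direction.

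Immunoproteasome subunits replace part of the constitutive proteasome core. Of the 14 core genes, all tested, 5 were lower and none higher at P0 than at E16.5 in surface cells, 7 in capillary cells and 3 in interstitial-like cells, where 12%, 20.1% and 14.6% of all genes tested were called lower. Psmb6 fell by 1.69 (SE 0.32, adjusted p = 3.45e-06), 1.86 (SE 0.29, adjusted p = 4.26e-09) and 1.44 (SE 0.25, adjusted p = 2.8e-07) by edgeR, and Psmb5 fell by 1.66, 1.96 and 1.21. The list medians were -0.72, -0.80 and -0.58 beside 0.14, 0.20 and 0.13 for all genes. In surface cells 13 of 14 were lower at P0 than at E9.5, where 27% of all genes tested were called lower. Ribosomal protein transcripts were also lower at P0, at 1919 and 2213 per 10000 in surface cells against 2898 before birth, and their part in these values was not tested.

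Beyond the members, the list of 18 class I heavy chains gave few testable genes. H2-T23, which encodes the nonclassical Qa-1 molecule, had 7 UMIs in surface cells at E16.5, then 31 and 15 in the P0 libraries (0.358, then 1.05 and 0.637), a difference of 0.79 (SE 0.81, adjusted p = 0.52, edgeR). Against E9.5, with 6 UMIs, it was higher at P0 by 5.28 (SE 0.80, adjusted p = 4.68e-10, edgeR). It lay below the filter's minimum of 0.511 per 10000 at E9.5 and E16.5. H2-T23 thus passed through P0 alone and could not be called lower. Fcgrt, the neonatal Fc receptor, was lower in surface and capillary than in interstitial-like cells by 1.72 (SE 0.31, adjusted p = 0.0016) and 2.26 (SE 0.38, adjusted p = 2.28e-05), opposite to H2-D1 and H2-K1. Class II genes were too low to be tested in any comparison, and summed to at most 0.823 per 10000 in the compared classes at P0.

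Irf1, an interferon-induced activator of class I genes, was low at E16.5 and higher in counts at P0. Surface cells had 9 UMIs at E9.5 (0.0341), 1 in the E16.5 library (0.0511), then 11 and 8 in the P0 libraries (0.374 and 0.340). Capillary cells had 2 at E16.5, then 30 and 8 in the P0 libraries, and interstitial-like cells 3 at E16.5, then 22 and 12 in the P0 libraries (0.573 and 0.658). Irf1 was not called between surface and interstitial-like cells, at a difference of -0.87 (SE 0.50, adjusted p = 0.244, edgeR) for surface minus interstitial. The share ratios of P0 to E16.5 were 4.52 (1.42 to 23) in interstitial-like and 4.92 (1.27 to 42.1) in capillary cells and were not called (adjusted p = 0.414 and 0.355). Against the E9.5 mixed cluster, with 3 UMIs, the unscaled P0 interstitial share was 34.2-fold higher (10.8 to 174). The edgeR difference was 5.30 (SE 1.35, adjusted p = 0.000458), and Irf1 passed the filter through P0 alone.

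Genes that respond to tissue dissociation are given beside Irf1 and Socs3, a feedback inhibitor. The 17 dissociation genes summed to 14.9 per 10000 in surface cells at E16.5, then 33.6 and 32.0 in the P0 libraries, to 14.3 and then 41.0 and 51.6 in capillary cells, and to 28.8 and then 87.9 and 94.8 in interstitial-like cells. Of those tested, 6 of 15, 8 of 16 and 7 of 17 were called higher at P0, where 9.54%, 17.6% and 12.2% of all genes tested were called higher, with Hspa1a and Hspa1b lower in interstitial-like cells. Socs3 was higher at P0 in interstitial-like cells by 2.01 (SE 0.55, adjusted p = 0.00185, edgeR), with 69 UMIs at P0 and 0 at E16.5 in capillary cells, and it passed the filter through P0 alone in both. The part of the dissociation genes in the P0 values was not tested.

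Receptors and signalling genes of the interferon pathway, a list of 18, had 0 of 6 tested genes called in surface cells between E16.5 and P0, 3 of 8 higher in capillary cells (Socs3, Stat3 and Ifngr1) and 1 of 4 higher in interstitial-like cells (Socs3). The list medians were 1.13, 1.56 and 1.31 beside 0.14, 0.20 and 0.13 for all genes tested, of which 9.54%, 17.6% and 12.2% were called higher. In capillary cells Socs3, Stat3 and Ifngr1 passed the filter through P0 alone.

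Ifitm3 and Ifitm2 differed most between E9.5 and the mitral stages. Ifitm3 was at 0.670 (0.575 to 0.776) in surface cells at E9.5, 10.8 (9.43 to 12.4) in the E16.5 library, then 12.1 (10.9 to 13.4) and 10.5 (9.27 to 11.9) in the P0 libraries. Ifitm2 was at 5.72 (5.44 to 6.02), 22.8 (20.7 to 25.0), 15.7 (14.3 to 17.2) and 16.02 (14.4 to 17.7). Both were low at E9.5, and Ifitm2 alone stood higher in the E16.5 library than in either P0 library. P0 exceeded E9.5 by 4.22 for Ifitm3 (SE 0.37, adjusted p = 6.66e-28, edgeR) and by 1.61 for Ifitm2 (SE 0.33, adjusted p = 6.5e-06).

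Neither gene was called higher at P0 than at E16.5 in the 3 classes. Ifitm2 was lower at P0 by 0.98 in surface cells (SE 0.31, adjusted p = 0.00976), 1.56 in capillary cells (SE 0.28, adjusted p = 5.23e-07) and 1.35 in interstitial-like cells (SE 0.20, adjusted p = 6.43e-10), and the surface call was lost with library totals (adjusted p = 0.0944), without the filter (0.0541) and with deeper cells only (0.0881). Ifitm3 was lower in interstitial-like cells, at 13.3 (11.9 to 14.9) and then 7.79 and 9.60, by 1.16 (SE 0.22, adjusted p = 2.45e-06). With deeper cells only, the interstitial calls of Ifitm3 and Ifitm2 were lost (adjusted p = 0.502 and 0.265). In surface and capillary cells it was not called, at -0.40 (SE 0.31, adjusted p = 0.367) and -0.19 (SE 0.29, adjusted p = 0.642), and these turned to 0.06 and 0.52 with library totals. The interaction for Ifitm3 between surface and interstitial-like cells was 0.76 (SE 0.29, unadjusted p = 0.00957, adjusted p = 0.239).

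No difference of Ifitm3 between endothelial-like and interstitial-like cells was called. Surface and capillary cells differed from interstitial-like cells by 0.10 (SE 0.17, adjusted p = 0.754) and 0.28 (SE 0.19, adjusted p = 0.34) by edgeR. Ifitm2 was higher in surface than in interstitial-like cells by 0.41 (SE 0.14, adjusted p = 0.0498), a call lost under 6 of the alternatives tried. The number of Ifitm3 UMIs per Ifitm2 UMI was 0.117 in surface cells at E9.5, 0.475 in the E16.5 library, then 0.771 and 0.658 in the P0 libraries, and in capillary cells 0.543 and then 1.66 and 1.17. In interstitial-like cells it was 0.705 and then 0.869 and 0.761, with overlapping intervals.

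**Figure D5:**
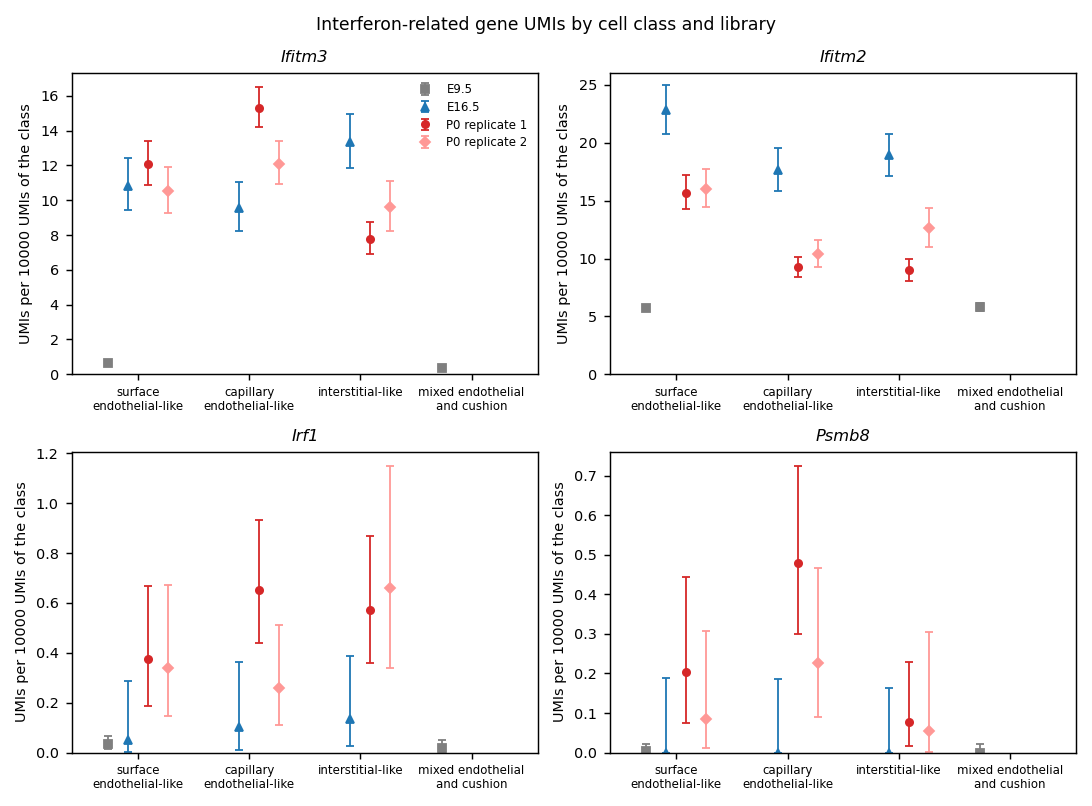
UMIs per 10000 UMIs of a class for Ifitm3, Ifitm2, Irf1 and Psmb8 in 4 classes, with 1 point per library and exact Poisson 95% intervals; the macrophage-like class is left out. Ifitm3 is at or below 0.670 in the E9.5 classes and at 7.79 to 15.3 in all mitral classes, and Ifitm2 is highest at E16.5 within each mitral class.

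Of 37 interferon-stimulated genes, few reached the counts needed for a test. In surface cells 7 were tested: none was higher and Ifi27 and Ifitm2 were lower at P0 than at E16.5, where 12% of all genes tested were called lower. All 7 were higher at P0 than at E9.5, where 24.8% of all genes tested were called higher. Most of the 7 lay below the filter's minimum at E9.5, so this count cannot be read against that share. In capillary cells 5 of 15 were higher, among them Isg15, Iigp1, Rtp4 and Gbp7, and 4 were lower (Ifitm2, Ifi27, Ly6c1 and Ly6a). Isg15, Iigp1 and Rtp4 had no UMIs before birth and 53, 53 and 42 at P0, and Gbp7 had 1 and 48. These 4 passed the filter through P0 alone and could only be called higher, and 17.6% of all capillary genes tested were called higher and 20.1% lower. In surface cells Ifi27, Bst2, Ly6e and Xaf1 lay below the filter's minimum at E9.5. The list medians were 0.02 in surface cells and -0.15 in capillary cells beside 0.14 and 0.20 for all genes. In interstitial-like cells 3 were tested and all 3 were lower (Ifitm2, Ifitm3 and Ifi27), where 14.6% of all genes tested were called lower.

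Bst2, a tethering factor against enveloped viruses, was the listed gene whose pattern was nearest to that of H2-D1. It was at 0.261 in surface cells at E9.5, 1.38 in the E16.5 library, then 3.16 and 2.17 in the P0 libraries, and at 0 at E16.5, then 0.235 and 0.165 in the P0 libraries in interstitial-like cells. It exceeded interstitial-like cells by 3.95 in surface cells (SE 0.41, adjusted p = 1.81e-05) and by 4.36 in capillary cells (SE 0.38, adjusted p = 1.14e-10) by edgeR, and it lay below the filter's minimum in every interstitial-like sum. Over 17 class sums of at least 20 cells, which share 4 libraries and their depths, Bst2 had the highest correlation of log2 levels with H2-D1 among 8766 genes ranked (r = 0.969), followed by Sdpr (0.965) and Txnip (0.956), while H2-K1 reached 0.907 and B2m 0.753. For B2m the nearest were Sept2 (0.946), Lama4 (0.935) and S100a16 (0.928), and for Ifitm3 they were Rpl35 (0.972), Gm10076 (0.971) and Rpl27-ps3 (0.971).

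Macrophage-like cells had the highest class I levels of any named class, and were named only in P0 replicate 2 (12 cells, 12 of 12 macrophage markers present, 154 per 10000 in sum). B2m stood at 36.3 (32.5 to 40.4), H2-D1 at 18.9 (16.3 to 21.96), H2-K1 at 8.398 (6.64 to 10.5), H2-Q4 at 1.29 (0.668 to 2.26) and Psmb8 at 4.63 (3.35 to 6.24). Ifitm3, at 10.0 (8.08 to 12.3), was within the range of the endothelial-like classes, and Ifitm2, at 4.84 (3.53 to 6.48), was below them. Macrophage markers in surface cells summed to 0.256 at E16.5, then 0.204 and 1.10 in the P0 libraries, with 8, 8 and 2 of 12 at 0. Without the cells that held any macrophage marker UMI, the H2-D1 difference between E16.5 and P0 was 1.72 (SE 0.42, adjusted p = 0.000667) in surface cells and 2.27 (SE 0.38, adjusted p = 2.49e-08) in capillary cells by edgeR.

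In the other named classes at E9.5, H2-D1 was at 0.0163 in cardiomyocyte-like cells (479 cells), 0.0311 in heart field-like cells, 0.0121 in epicardial-like cells, 0.0993 in erythroid-like cells, 0.117 in pharyngeal mesenchyme-like cells and 0.209 in foregut or epithelial-like cells. Surface endothelial-like cells, at 0.337, had the highest H2-D1 of the named classes at E9.5, with the mixed cluster at 0.263 (0.192 to 0.352) beside them. H2-K1 was higher in foregut or epithelial-like cells, at 0.167 (0.0723 to 0.330, 8 UMIs), than in surface endothelial-like cells, at 0.0227 (0.00833 to 0.0494), and H2-Q4 had 4 UMIs there and 0 in surface cells. Ifitm2 was at 4.25 in foregut or epithelial-like, 3.53 in pharyngeal mesenchyme-like and 3.44 in heart field-like cells. Ifitm3 was highest in foregut or epithelial-like cells, at 1.65 (24 cells), above surface endothelial-like cells at 0.670.

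The scale set the direction of small changes between E16.5 and P0. TMM left the median difference of all tested genes at 0.14, 0.13 and 0.20 in surface, interstitial-like and capillary cells, and library totals moved it to 0.60, 0.65 and 0.91. The share of calls that were higher at P0 went from 44.2% to 71.6% in surface cells, from 45.5% to 73.2% in interstitial-like cells and from 46.7% to 78.5% in capillary cells, and DESeq2 gave 21.6%, 23.1% and 13.9%. Against E9.5 the surface share was 47.9%, and 67.9% in DESeq2. Against the mixed cluster it was 56.0%, with 36.3% by totals and 85.8% in DESeq2. H2-D1 was higher at P0 under each scaling that gave it a value, by 2.25 in surface cells and 2.93 in capillary cells with totals.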

How the data were processed

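Red-sorted cells of 4 libraries were profiled with a 3′ droplet kit, and the values are deposited counts of UMIs per gene and cell, made by the authors with Cell Ranger 2.1.1 against mm10, per the submitters' processing notes. The count tables hold 27998 genes; the counting strand is not given in the sources used here. UMI counts from the 3′ end do not scale with transcript length, so levels are compared across cells and not between genes. The authors' deposited barcode and gene lists, which hold names and no measured unit, had faults. The barcode lists of P0 replicates 1 and 2 have 211 and 291 lines and their matrices 291 and 211 columns, so lists or matrices may be exchanged between these libraries, and which was not determined. The lists share 4 barcodes, and 15 symbols of the P0 replicate 1 gene table were altered, so cells were taken by matrix column and genes by identifier. The age label of the E16.5 library is mistyped, and its stage was taken from the title.

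Cells with at least 500 genes and at most 10% mitochondrial UMIs were kept, and Scrublet in scanpy 1.11.5 (Python 3.11.15) marked 5, 6, 1 and 5 doublets, 0.344% to 2.37% of cells, which were removed. Each library was clustered alone without the pathway genes (2000 variable genes, 20 components, 15 neighbours, resolution 1.0, seed 0), and clusters were named from marker lists with naming thresholds set after the clusters were seen. UMIs were summed per library and class. Genes reaching, in any sum, the CPM of 10 counts in the smallest sum were tested with edgeR 4.0.16 in R 4.3.3 (quasi-likelihood, TMM, Benjamini-Hochberg, limma 3.58.1), and a call needed an adjusted p under 0.05 and every P0 library, or every library in contrasts between classes, on the same side. Contrasts between classes had the library as a block, since both classes came from each library. Stage fits had 1 residual degree of freedom, so their spread comes from the P0 libraries and the single libraries are assumed to vary alike. Named genes were the 9 members, up to 4 called genes per direction of each pathway list, and the 3 genes most alike to B2m, H2-D1 and Ifitm3, by log2 levels with a pseudocount of 0.5. The members and lists were chosen with earlier results of these data known. On simulated counts with 200 genes changed by 2 on the log2 scale, the fits recovered 94% (surface stage, 3687 genes), 100% (surface against interstitial, 3136 genes) and 89.5% (surface interaction, 3226 genes). Thinning to 1000 UMIs used seed 7. Alternatives were DESeq2 1.42.0, library totals, no filter, pathway genes in clustering, deeper cells, resolution 0.5, no block and each library left out.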

Additional observations from a re-analysis of the deposited data

Results flagged for a closer look

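Small unnamed clusters outside the comparisons had higher levels of single members than the named classes of their library. In the E16.5 library, a cluster of 22 cells led by Pf4, Dlk1 and Ccl2 had B2m at 12.5 per 10000 (exact Poisson 95% interval 9.91 to 15.6), above the capillary endothelial-like 7.80, while its ratio of H2-K1 and H2-D1 to B2m UMIs was 0.0759 (0.0271 to 0.173), below 0.322 in surface endothelial-like cells. At E9.5, a cluster of 13 cells led by Pf4, Prtn3 and Coro1a had B2m at 5.09 (4.46 to 5.79), above 2.29 in the mixed endothelial and cushion cluster. The same 13 cells had H2-D1 at 2.20 (1.79 to 2.67), above 0.337 in surface endothelial-like cells, and Ifitm3 at 2.50 (2.07 to 3.01), above 1.65 in foregut or epithelial-like cells. Each is 1 cluster of 1 library, so the intervals cover counting error only.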

How the results depend on the processing

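Of the single-gene values recomputed, 545 were the same, 42 lost a call, 8 gained one and 14 with no test moved. Where a test was run, the same meant that the call did not change. Where no test was possible, it meant the same sign and a shift within the SE of the main fit, and other values counted as moved. No called value changed sign, while some values that were not called did, among them B2m and Ifitm3 in surface and capillary cells with library totals. The cause of each change was not tested. Members called changed as follows: with deeper cells only, 1 in place of 3 (surface, P0 against E16.5), 0 in place of 3 (interstitial) and 3 in place of 5 (mixed cluster against interstitial); without the filter, 8 in place of 5 (surface, P0 against E9.5) and 1 in place of 2 (capillary against surface); at resolution 0.5, 1 in place of 2 (capillary against surface). DESeq2 called 2 in place of 4 members in capillary cells, 1 in place of 3 for surface against interstitial and 1 in place of 2 for capillary against surface; its NA values were not counted.

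Over all genes, DESeq2 called 333 in place of 941 (surface, E16.5), 552 in place of 2257 (surface, E9.5), 346 in place of 1036 (interstitial), 409 in place of 1594 (mixed cluster), 368 in place of 1301 (capillary), 538 in place of 914, 653 in place of 1031 and 338 in place of 742 (the 3 class contrasts) and 4 in place of 55 (surface interaction). Without the filter, 3427 were called for surface cells against E9.5. Deeper cells gave 340 (interstitial), 446 (mixed cluster), 563, 492 and 488 (class contrasts) and 0 (surface interaction). Leaving out dividing clusters, an alternative chosen after seeing the data, gave 821 (capillary), 668 (capillary against interstitial), 393 (capillary against surface) and 28 (surface interaction). The capillary interaction, 0 as reported, called 12 without the filter, 19 with pathway genes in clustering, 35 at resolution 0.5 and 13 without cells holding a macrophage marker UMI, the other alternative chosen after seeing the data.

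Without the replicate block (the library), the class contrasts called 1 member and 372 genes (surface against interstitial), 503 genes (capillary against interstitial), and 0 members and 101 genes (capillary against surface). No paired analysis was possible for the stage comparisons because those groups share fewer than 2 replicate numbers. Leaving out each library gave 1 to 3 members and 296 to 1189 genes, 663 to 899 genes, and 0 to 1 members and 386 to 785 genes for the 3 class contrasts in the same order. The lowest count for surface against interstitial came without P0 replicate 1. In stage fits it left no residual degrees of freedom and gave values only. Depth limits H2-K1, Tap1, Psmb8, H2-Q4 and Irf1, which had at most 3 UMIs in each compared class at E16.5.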
